A study of Mus musculus with 8 samples.

Results

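The genes described here are the 4 monocyte chemoattractant protein genes of the mouse, Ccl2, Ccl7, Ccl8 and Ccl12, and Ccr2, the receptor gene of inflammatory monocytes. They were taken by name, 5 of the 32285 genes in the count table, and were chosen by their levels in these same grafts, cell types and groups, with earlier results known. Their levels in each cell type, graft, day and genotype are therefore given as a description, with standard errors and no p-values. The data are single-cell RNA-seq of immune cells sorted as CD45+ PI- from grafts of NIT-1, a beta-cell line of the NOD (non-obese diabetic) mouse. Each immunodeficient host, of the strain NOD.Cg-Prkdc scid/J, carried WT NIT-1 cells under the skin of one flank and Rnls mutant cells under that of the other, and all animals then received splenocytes of recently diabetic NOD mice (autoreactive and syngeneic). Scid hosts lack T and B cells of their own but keep myeloid cells, so that host and transferred macrophages and monocytes cannot be told apart here. The age of the host animals is not given in the sources used here. Rnls encodes renalase, the gene's own level was not analysed here, and the edit was carried by the graft cells, not by the immune cells that were sequenced.

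The 4 groups were WT day 10, Rnls mutant day 10, WT day 17 and Rnls mutant day 17, with 4 grafts each that were told apart by antibody hashtags. Each group was 1 droplet library, so library and group cannot be told apart, and the labels do not give the mouse of a hashtag. The table held 22441 cells of 16 grafts, 350 to 1967 per graft, with 1742746 to 9729233 unique molecular identifiers (UMIs, counted RNA molecules) per graft and at least 1001 per cell. Libraries shared 42 cell barcodes, and no barcode occurred in more than 1 graft of a library. The labels give the cell type as beta cell, but the cells had been sorted on CD45, a marker of leukocytes. Of the beta cell markers, Ins1 and Iapp were at 0 in all 12 cell types. Ins2 reached at most 2.51 CPM and Chga at most 0.105 CPM, both in the cells annotated Stem-Progenitor. The 7179 cells annotated as macrophages (107 to 1178 per graft) had more C1qa (2072 CPM, counts per 1000000 UMIs, over all cells pooled), Apoe (2782 CPM) and Mrc1 (775 CPM) than the 2345 cells annotated as monocytes (109, 41.1 and 88.3 CPM). Monocytes had more Ly6c2 (532 CPM), Plac8 (2115 CPM) and Ace (39.6 CPM) than macrophages (164, 499 and 0.482 CPM). F13a1, from the same list of monocyte markers, went the other way, with 511 CPM in macrophages and 78.0 CPM in monocytes. T cell marker genes summed to 1.71 to 12.8 CPM in the macrophages of a graft.

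Chemokines are small secreted proteins that steer leukocytes through receptors coupled to G proteins. Ccl2, Ccl7 and Ccl12 signal through CCR2, which monocytes use to leave the bone marrow and to enter inflamed tissue. Ccl8 is a close relative whose best known receptor in the mouse is CCR8. The 4 ligand genes lie in 1 cluster on the plus strand of chromosome 11, and activated macrophages, fibroblasts and endothelium are known sources. In pancreatic islets these ligands are known for bringing monocytes and macrophages into the tissue.

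In the GENCODE vM21 annotation of GRCm38 (mm10), Ccl2 spans chr11:82035571-82037453, and Gm17268 on the opposite strand overlaps it. Ccl7 follows at chr11:82045712-82047525, then Ccl12 at chr11:82101845-82103400 and Ccl8 at chr11:82115185-82116799. The 4 genes fit into 81229 bases, and the end of Ccl12 lies 11784 bases from the start of Ccl8. Ccr2 spans chr9:124101950-124113557 on the plus strand. Promoters of 3 of the 5 genes were in the RefSeq table (GRCm38.p6). Those of the neighbours Ccl8 and Ccl12 are printed because these neighbours shared sequence there: 250 bases before each start, plus strand, chr11:82114935-82115184 for Ccl8 and chr11:82101595-82101844 for Ccl12. Capitals mark every run of 8 or more bases that both promoters hold.
Ccl8: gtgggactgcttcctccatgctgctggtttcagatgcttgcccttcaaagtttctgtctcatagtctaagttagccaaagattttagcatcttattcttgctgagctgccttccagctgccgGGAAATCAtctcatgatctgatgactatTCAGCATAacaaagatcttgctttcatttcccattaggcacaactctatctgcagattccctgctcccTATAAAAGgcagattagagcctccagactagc
Ccl12: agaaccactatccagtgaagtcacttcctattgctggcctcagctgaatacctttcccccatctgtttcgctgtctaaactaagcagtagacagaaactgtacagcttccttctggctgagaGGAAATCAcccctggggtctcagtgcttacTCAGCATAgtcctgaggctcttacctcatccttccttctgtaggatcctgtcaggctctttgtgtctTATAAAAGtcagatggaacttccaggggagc
The shared runs stood in the same order at nearly the same distances. GGAAATCA began 128 bases before the start in both and is found in 0.472% of the 32851 promoters of the table on the gene's strand. TCAGCATA began 100 bases before the start of Ccl8 and 98 before that of Ccl12 (0.21% of promoters). TATAAAAG, which holds the letters of a TATA box, began 32 and 31 bases before the starts (1.06% of promoters). The letters GAAANNGAA of an interferon-stimulated response element, searched on both strands, had 1 match in the Ccr2 promoter and 0 in those of Ccl8 and Ccl12, against 7.13% of all promoters. TTCNNNGAA, the gamma-activated sequence (7.02% of promoters), and TGANTCA, the AP-1 site (6.75%), had 0 matches in all 3, on both strands.

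Among the cell types with at least 10 cells in a graft, the 4 ligand genes had their highest mean in macrophages, whereas Ccr2 had it in regulatory T cells. Ccl8 averaged 4260.4 ± 1615 CPM in macrophages (mean ± SD, n = 16 grafts, 1788 to 6806), and its next cell type, granulocytes, averaged 443 ± 490.5 CPM (n = 12). The ranges of these 2 types did not overlap. Monocytes (233 ± 190.1 CPM, n = 15), CD8 T cells (234 ± 266 CPM) and ILC-1 (243 ± 346 CPM) lay within their spread of each other for Ccl8. Ccl7 averaged 373 ± 156 CPM in macrophages and 93.5 ± 53.4 CPM in monocytes, with ranges apart. The Ccl7 level of dendritic cells was 18.6 CPM, and the other types had less.

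For Ccl2, macrophages averaged 329 ± 145 CPM (160.2 to 726) and monocytes 139.8 ± 67.1 CPM (53.6 to 258), and the ranges overlapped. Granulocytes followed at 61.6 ± 98.4 CPM, a value that rested on 29 UMIs, and T cells were at 8.47 CPM (CD4) or less. Ccl12 had 76.8 ± 50.8 CPM in macrophages (12.6 to 202) and 24.3 ± 19.4 CPM in monocytes. These means, too, lay within the spread of the grafts. In the median graft, macrophages held 95.9% of all Ccl8 UMIs (84.0% to 99.2%), 91.0% of Ccl12, 90.0% of Ccl7 and 87.6% of Ccl2 UMIs.

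Ccr2 followed another order, with lymphocytes among the high types. Regulatory T cells averaged 595 ± 118 CPM (n = 14, 471 to 841), and this range lay above that of CD8 T cells (327 ± 54.2 CPM). Monocytes (313 ± 182 CPM), CD4 T cells (262 ± 61.2), NK cells (247 ± 71.9), ILC-1 (222 ± 56.0), macrophages (207 ± 92.4) and dendritic cells (178 ± 78.0) formed a row in which each neighbour lay within the spread of the next. Granulocytes, the type with the lowest mean, had 7.88 ± 24.2 CPM, from 3 UMIs. Macrophages held 28.8% of Ccr2 UMIs in the median graft, between 8.30% and 76.2%.

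**Figure D1:**
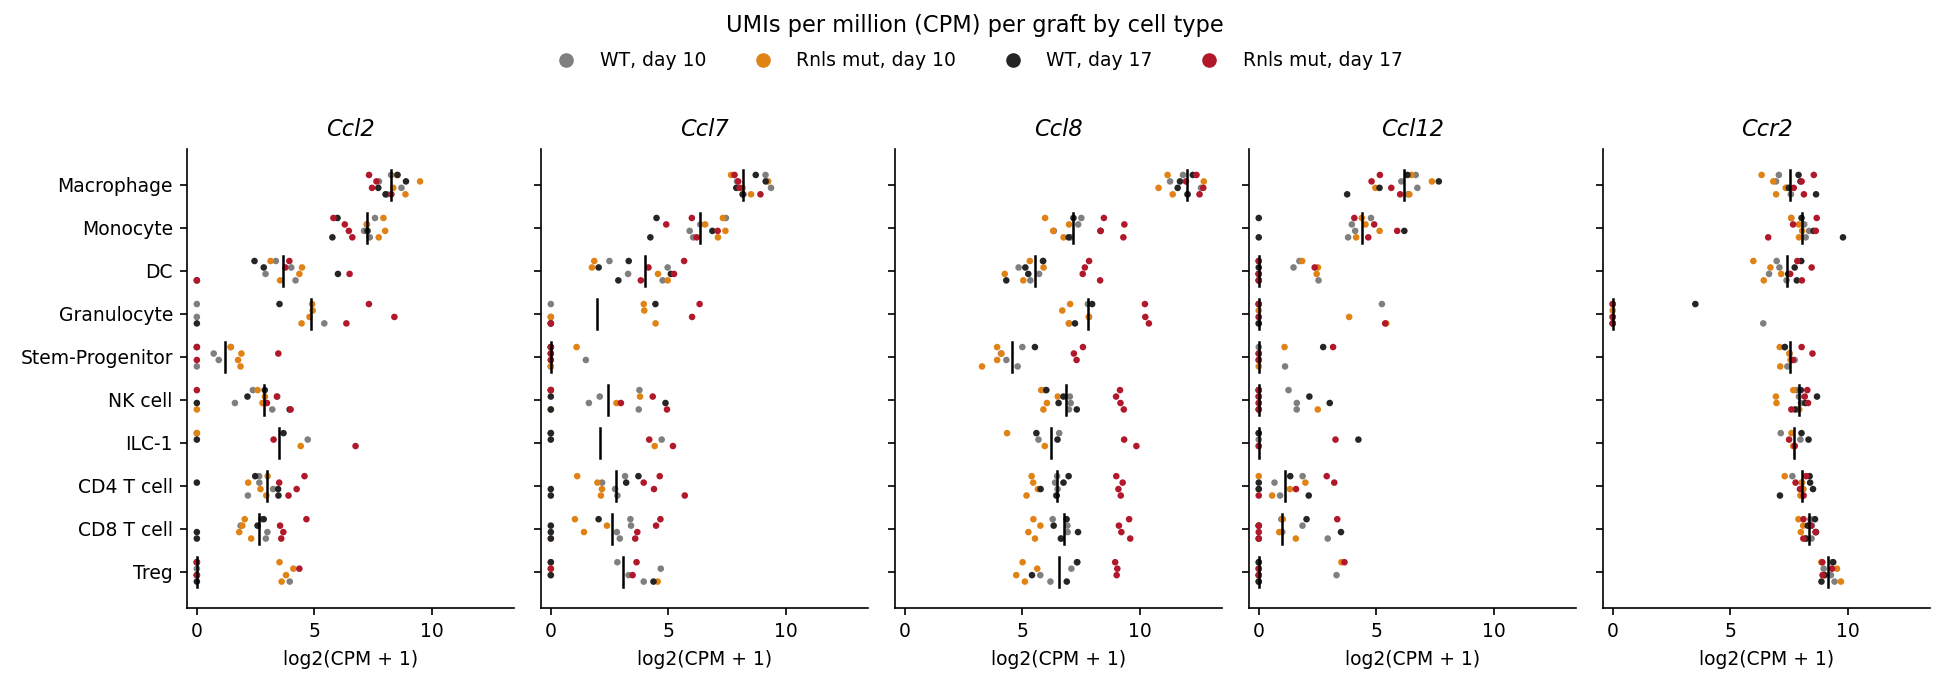
Level of the 5 genes by cell type, 1 panel per gene. The x axis is log2(CPM + 1), each point is 1 graft with at least 10 cells of the type, colours give the group and the short lines are medians. The ligand genes peak in macrophages, with Ccl8 between 1788 and 6806 CPM, while Ccr2 peaks in regulatory T cells.

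Macrophages were compared between genotypes at each day and between days in each genotype, with the graft as the replicate. These contrasts ask whether the immune cells around Rnls mutant grafts differed from those around WT grafts, and how they changed with time. Both genotypes had Ccl2 levels that overlapped at day 10 and at day 17, but the Rnls mutant grafts of day 17 lay below all Rnls mutant grafts of day 10. Ccl2, the main CCR2 ligand, had 308, 215, 419 and 271 CPM in macrophages of the WT day 10 grafts 1 to 4 and 366, 726, 328 and 471 CPM in those of the Rnls mutant. At day 17 the values were 373, 478, 211 and 261 CPM in WT and 160.2, 199, 175 and 310.4 CPM in Rnls mutant grafts. Only the Rnls mutant day 17 grafts were all under 328 CPM, the lowest Rnls mutant graft of day 10. The mean of Rnls mutant grafts was 473 ± 179 CPM at day 10 and 211 ± 68.1 CPM at day 17 (n = 4 each), 0.447 times the day 10 level. The edgeR log2 fold change was -1.30 ± 0.32 (SE, 95% interval -1.92 to -0.68). WT grafts gave -0.05 ± 0.31 over the same days. Between genotypes the log2 difference was 0.62 ± 0.31 at day 10 (0.01 to 1.23, higher in the mutant) and -0.63 ± 0.31 at day 17 (-1.24 to -0.01, lower in the mutant), with overlapping grafts at both days. These intervals use the normal quantile, which makes them too narrow for so few grafts, and no difference between genotypes is read from them. With the macrophage clusters of each graft weighted alike, as described with the clusters, the Ccl2 grafts of the 2 days overlapped in the Rnls mutant and the ratio of means was 0.787. The change of the genotype difference from day 10 to day 17 was -1.25 ± 0.44 (-2.11 to -0.38), and nothing is read from this interval either. For that change 0 of the 5 genes and 0.0429% of all genes were called at an adjusted p of 0.05 in edgeR.

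Ccl7, which binds CCR2 and further CC receptors, showed no group that stood clear of another. The Ccl7 values of WT day 10 grafts were 564, 243, 664 and 295 CPM and those of Rnls mutant day 10 grafts 204, 610.1, 286 and 367 CPM. At day 17 they were 423, 567, 238 and 286 CPM in WT and 225, 251, 262 and 485 CPM in Rnls mutant grafts. All 4 log2 differences of Ccl7 were between -0.40 and -0.29, with standard errors of 0.41 to 0.42.

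Ccl8 had by far the most UMIs of the 5 genes, 177485 in all, and its graft values also overlapped in every contrast. They were 3683, 2515, 6269 and 4195 CPM in WT day 10 grafts and 2336, 6806, 1788 and 2716 CPM in Rnls mutant day 10 grafts. Rnls mutant day 10 graft 2 was the highest of all 16, in the group that also held the lowest. At day 17, WT grafts had 4918, 3368, 3147 and 4224 CPM and Rnls mutant grafts 5483, 4012, 6699.8 and 6006 CPM. The means were 3914 ± 814 CPM in WT and 5550.1 ± 1140.2 CPM in Rnls mutant grafts of day 17, a ratio of 1.42 and a log2 difference of 0.51 ± 0.37 (-0.22 to 1.25). At day 10 the difference was -0.31 ± 0.37. From day 10 to day 17 it was 0.57 ± 0.37 in the Rnls mutant, or 1.16 without Rnls mutant day 10 graft 2, the single alternative of 21 in which the value passed an adjusted p of 0.05 in edgeR. The share of macrophages with a Ccl8 UMI averaged 55.4%, 43.5%, 74.4% and 88.4% in WT day 10, Rnls mutant day 10, WT day 17 and Rnls mutant day 17 grafts, at median depths of 5702, 5746.5, 7715 and 3630 UMIs per macrophage.

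Summed over all cells of a graft rather than macrophages alone, Ccl8 did not overlap between the genotypes at day 17. The share of all genes without overlap in such sums is not given here, so nothing is read from this. WT grafts had 2049, 1429, 2497 and 2839.8 CPM and Rnls mutant grafts 3903, 2942, 4555 and 4241 CPM, so that every Rnls mutant graft was above every WT graft. Macrophages were 48.9 ± 23.7% of the cells of WT grafts at day 17, from 29.9% to 79.6%, and 61.1 ± 3.23% of those of Rnls mutant grafts. At day 10 they were 17.0 ± 6.14% and 15.9 ± 9.01%, and all-cell Ccl8 was 1013 ± 400.5 and 860.4 ± 795 CPM. Lymphocytes of day 17 had 101 CPM of Ccl8 in WT and 570 CPM in Rnls mutant grafts, and such UMIs are part of these sums. In the 2 closest grafts, WT graft 4 and Rnls mutant graft 2, macrophages held 99.0% and 95.1% of the Ccl8 UMIs. In such sums more macrophages, more RNA per macrophage and more Ccl8 UMIs in other cells cannot be told apart.

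Ccl12, the mouse-specific CCR2 ligand, was the least abundant in UMIs (2800 in all) and the most uneven. Its macrophage values were 102, 66.2, 107 and 81.0 CPM in WT and 89.3, 165, 30.2 and 84.4 CPM in Rnls mutant grafts of day 10. At day 17 they were 79.6, 202, 34.3 and 12.6 CPM in WT and 34.7, 26.9, 49.0 and 63.9 CPM in Rnls mutant grafts. WT day 17 thus held both the highest and the lowest of the 16 grafts. The log2 difference from day 10 to day 17 was -1.31 ± 0.65 in Rnls mutant grafts (-2.59 to -0.03) and -0.42 ± 0.64 in WT, with overlap in both.

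In Rnls mutant grafts, Ccr2 in macrophages went the other way from Ccl2 over time, while Ccl2 hardly moved in WT. Day 10 values were 134, 123, 169.8 and 191 CPM in WT and 80.0, 113, 164 and 123 CPM in Rnls mutant grafts. Day 17 values were 239.9, 254, 180.0 and 403 CPM in WT and 377, 263, 208 and 281 CPM in Rnls mutant grafts. All Rnls mutant grafts of day 17 were above all of day 10, by 2.35 times in the mean and 1.13 ± 0.27 on the log2 scale (0.60 to 1.65). In WT the difference was 0.64 ± 0.26 (0.13 to 1.16), and 1 day 17 graft lay within the day 10 range. With the clusters weighted alike the Ccr2 ratio in Rnls mutant grafts was 1.51, and the days overlapped. Genotypes differed by -0.41 ± 0.27 at day 10 and 0.08 ± 0.26 at day 17 on the log2 scale.

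**Figure D2:**
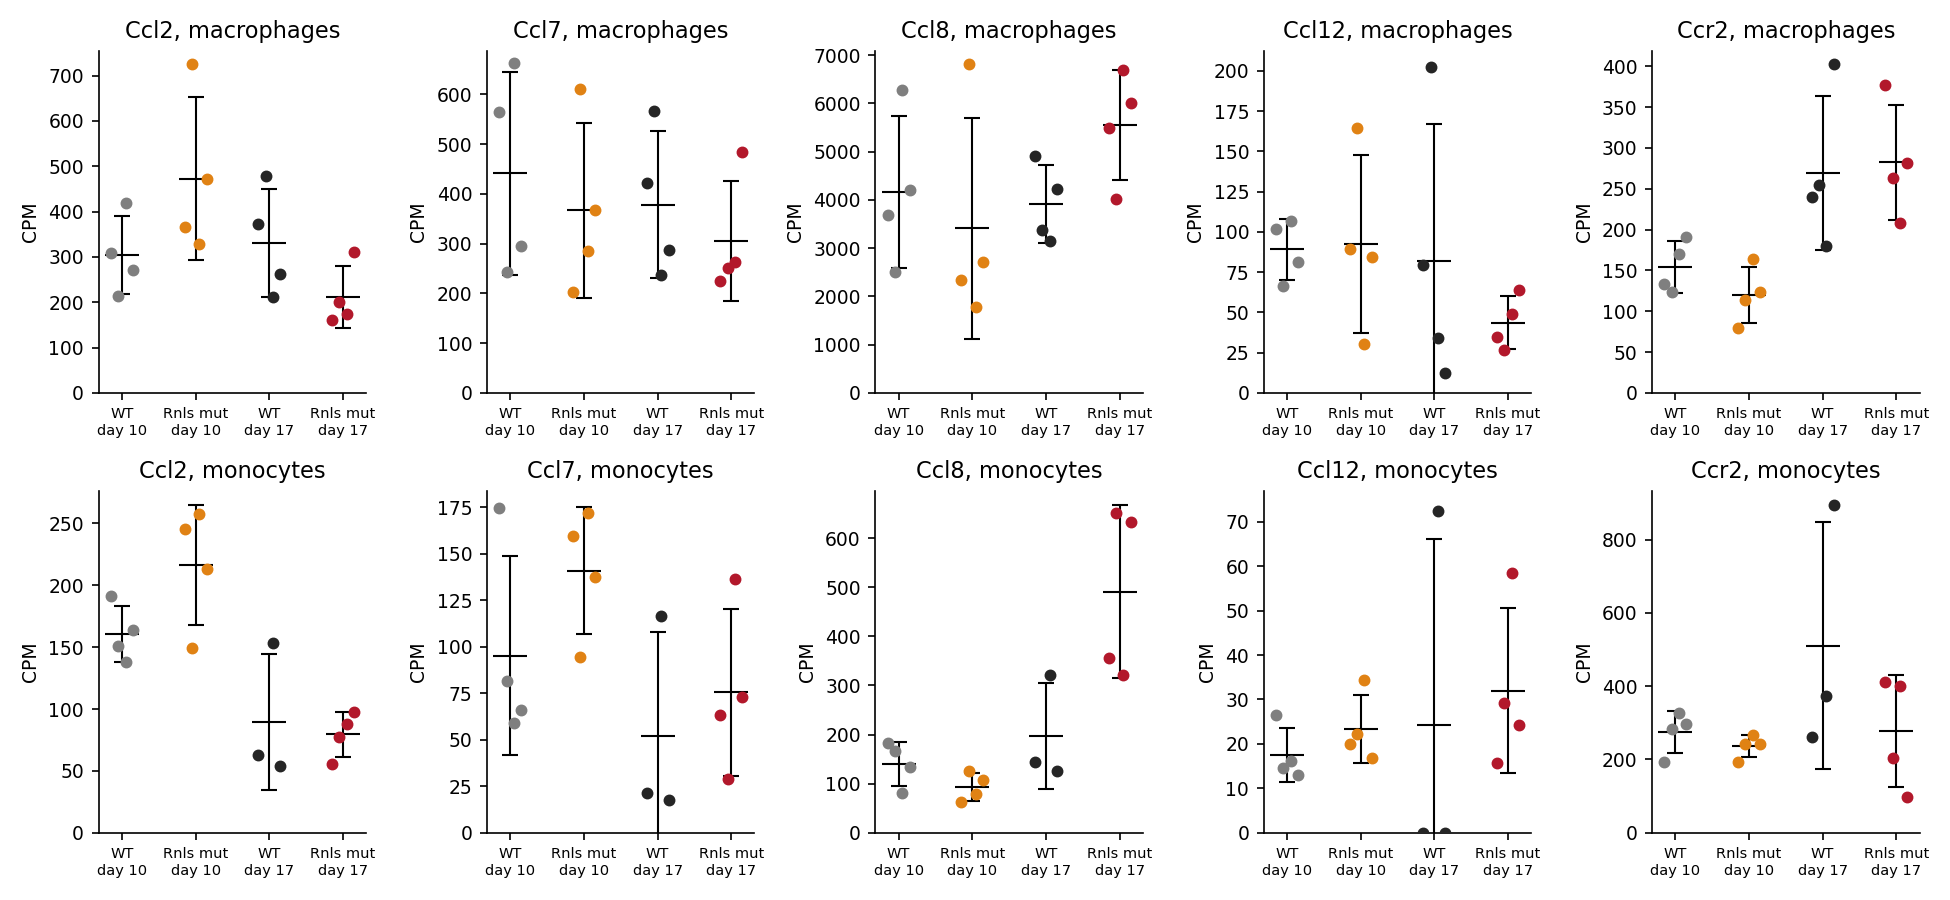
Level of the 5 genes in macrophages (upper row) and monocytes (lower row) of each graft. The y axis is CPM, points are grafts, and bars give the mean and SD of each group. In macrophages Ccl2 of Rnls mutant grafts lies between 328 and 726 CPM at day 10 and between 160.2 and 310.4 CPM at day 17, and Ccr2 has the opposite order.

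All 5 genes were among the 9331 tested in macrophages. At an adjusted p of 0.05 in edgeR's quasi-likelihood test, 0 of the 5 were called between genotypes at day 10, where 0.0322% of all genes were called, and 0 at day 17, where 0% were. The genes called at day 10 were Gm10076, Cmss1 and mt-Atp8, 3 genes outside the chemokine lists, and 640 genes had an unadjusted p under 0.05. At day 17 the unadjusted count was 560, and DESeq2 called 13 genes. From day 10 to day 17, 0 of the 5 were called in WT (24.6% of all genes) and 2, Ccl2 and Ccr2, in Rnls mutant grafts (41.4% of all genes). Since the genes were chosen with such contrasts in view, nothing is read from these counts.

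In monocytes the ligand genes were lower than in macrophages on average, and Ccl2 was again lower at day 17 than at day 10 in Rnls mutant grafts. Monocytes were 15.5 ± 4.22% (WT) and 13.8 ± 2.65% (Rnls mutant) of the cells at day 10 and 4.35 ± 4.05% and 2.29 ± 0.489% at day 17. WT day 17 graft 2 had 7 monocytes and was left out, and graft 4 had 10. Ccl2 had 191, 151, 138 and 164 CPM in WT and 245, 149.7, 258 and 213 CPM in Rnls mutant grafts of day 10. At day 17 it had 62.5, 153 and 53.6 CPM in WT grafts 1, 3 and 4 and 55.3, 77.8, 87.8 and 97.4 CPM in Rnls mutant grafts, the latter from 28 UMIs in all. Every Rnls mutant graft of day 17 was below every one of day 10, by -1.67 ± 0.32 on the log2 scale (-2.31 to -1.04). The WT value was -0.89 ± 0.30 (-1.47 to -0.31), with WT day 17 graft 3 inside the day 10 range. Without that graft the WT value was -1.60.

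Ccl7 in monocytes had a wide spread in each group. The group means were 95.2 ± 53.7 CPM in WT and 141 ± 34.2 CPM in Rnls mutant grafts at day 10, and 52.1 ± 56.0 CPM (n = 3) and 75.5 ± 44.9 CPM at day 17. Without WT day 17 graft 3 its log2 difference between genotypes at day 17 became 1.79. Ccl12 was at 0 in 2 of the 3 WT day 17 grafts and at 72.5 CPM in the other, from 18 UMIs in 2 cells, so that no fold was read from it. A count of 0 allows up to 7.22 and 53.6 CPM in the grafts at 0. Ccr2 averaged 275 ± 57.9 CPM (WT) and 236 ± 30.9 CPM (Rnls mutant) at day 10 and 510.2 ± 337 CPM and 278 ± 153 CPM at day 17, within the spread of the grafts.

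Ccl8 in monocytes was 182, 166, 80.4 and 133 CPM in WT and 61.8, 127, 78.8 and 108 CPM in Rnls mutant grafts of day 10. At day 17 it was 144, 322 and 125 CPM in WT and 356, 651, 322 and 633 CPM in Rnls mutant grafts. Rnls mutant grafts of day 17 were all above those of day 10, by 2.16 ± 0.35 on the log2 scale (1.47 to 2.84). The lymphocytes of these grafts had a similar level, which is given with the free-RNA values. In monocytes 0 of the 5 genes were called between genotypes at day 10 (0% of the 8092 genes tested, 178 genes at an unadjusted p under 0.05, 2 called by DESeq2). At day 17, 0 were called as well (0% of genes, 399 at an unadjusted p under 0.05, 0 by DESeq2). From day 10 to day 17, 0 were called in WT (3.29% of genes) and 2, Ccl2 and Ccl8, in Rnls mutant grafts (3.04% of genes). The count over all genes in WT was 37 without WT day 17 graft 1 and 1277 without graft 3. That in Rnls mutant grafts fell to 78 without Rnls mutant day 17 graft 2.

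Lymphocytes served as the check for free RNA, that is, UMIs that reach droplets of cells which do not make the RNA. Ccl8 in T cells, regulatory T cells, B cells, NK cells and ILC-1 together was 96.4 CPM in WT day 10, 44.2 in Rnls mutant day 10, 101 in WT day 17 and 570 in Rnls mutant day 17. These values were 2.35%, 1.21%, 2.81% and 10.5% of the macrophage level of the same library. The share of lymphocytes with a Ccl8 UMI was 23.1%, 12.5%, 32.7% and 69.5%, at median depths of 2466, 2837, 4069 and 2252 UMIs, against 55.1%, 43.4%, 73.0% and 87.5% of macrophages. With every cell thinned to 1000 UMIs, which no cell fell short of, the lymphocyte shares were 10.54%, 4.764%, 11.01% and 43.95% (n = 4173, 3841, 917 and 1670 cells). Rnls mutant day 17 thus stood apart from the other 3 libraries.

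Within a library the lymphocyte level hardly varied between grafts. It was 40.6 to 48.8 CPM in the 4 Rnls mutant day 10 grafts, whose macrophages ranged from 1788 to 6806 CPM, and 548 to 641 CPM in the Rnls mutant day 17 grafts. WT grafts had 81.9 to 106 CPM at day 10 and 78.1 to 115 CPM at day 17. C1qa, a complement gene of macrophages, followed the same order of libraries in lymphocytes, with 20.1, 9.76, 27.7 and 108 CPM. Ccl8 UMIs per UMI of the 3 C1q genes were 2.16, 1.91, 1.52 and 2.32 in lymphocytes and 0.998, 1.04, 0.815 and 0.990 in macrophages, so the 2 ratios were not equal. Where the lymphocyte UMIs came from was not tested.

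The monocyte Ccl8 of Rnls mutant grafts at day 17 exceeded that of lymphocytes of the same graft in 1 of 4 grafts, with a mean difference of -91.4 CPM, and is therefore not read as expression by monocytes. In the other groups monocytes were above lymphocytes in 3 of 4 (WT day 10), 4 of 4 (Rnls mutant day 10) and 3 of 3 grafts (WT day 17), by 44.6, 49.2 and 99.1 CPM on average. Without graft 3 the WT day 17 mean was 26.6 CPM. Macrophages kept 4069.7, 3367, 3817 and 4968 CPM of Ccl8 after the subtraction, in the order of groups used above. Ccl2 reached at most 15.8 CPM and Ccl7 at most 19.6 CPM in the lymphocytes of a library, both in Rnls mutant day 17, and monocytes exceeded them in every graft for both genes. Ccl12 reached 4.06 CPM in lymphocytes. Ccr2 is made by lymphocytes themselves, and for it granulocytes give the background. Granulocytes had 27.3, 0, 13.6 and 0 CPM per library, from 4 UMIs in all 369 cells, against 305, 263, 326 and 292 CPM in lymphocytes. The counts of 0 allow up to 11.6 and 32.8 CPM.

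**Figure D3:**
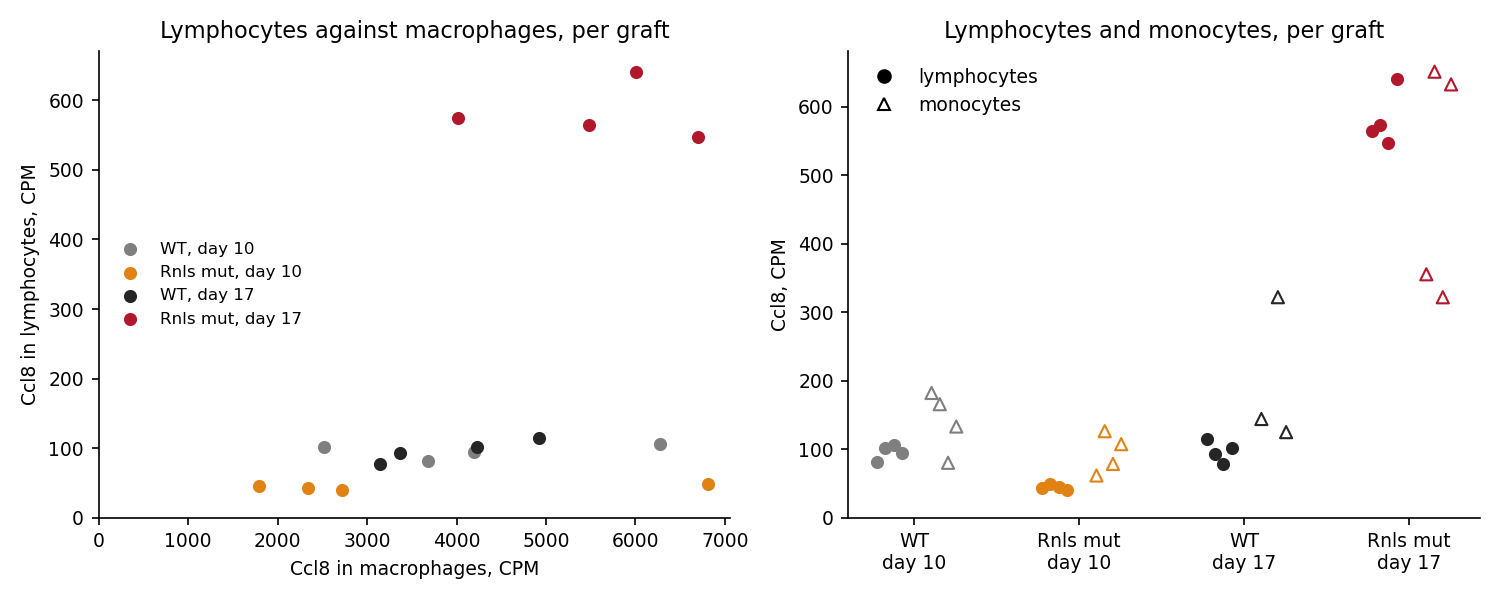
Ccl8 in lymphocytes as a check for free RNA. The first panel sets the Ccl8 level of lymphocytes against that of macrophages for each graft, and the second shows lymphocytes beside monocytes of each graft, all in CPM and coloured by group. Rnls mutant day 17 grafts lie at 548 to 641 CPM in lymphocytes and the other 12 grafts at 40.6 to 115 CPM.

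Ccl8 was concentrated in a subset of macrophages. The authors' clusters were built on these cells with these genes, so their levels are a description. Cluster 2 averaged 11344 ± 2343 CPM of Ccl8 (n = 11 grafts with at least 10 cells) and cluster 13 averaged 10216 ± 4084 CPM (n = 9), while cluster 10 had 2181 ± 647 CPM and clusters 12, 5 and 4 had 847 ± 362, 695 ± 477 and 551 ± 379 CPM. The single WT day 17 graft with at least 10 cells in cluster 13 had 1022 CPM there, from 13 cells. Cluster 2 held 24.8% of macrophages and 58.6% of their Ccl8 UMIs, and cluster 13 held 7.68% and 24.6%. Beside Ccl8, cluster 2 was led by Cxcl13, Apoe, Ednrb and Selenop. Cluster 13 was led by heat-shock genes (Hspb1, Hsph1, Dnajb1, Hspa1b), by Jun and by Ccl4, Ccl7 and Ccl12.

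The means of the other ligand genes were higher in cluster 13, a mainly day 10 cluster, than in cluster 2, a mainly day 17 cluster. Ccl2 averaged 960.2 ± 528 CPM in cluster 13 and 329.8 CPM in cluster 2, Ccl7 1145 ± 448 and 489.9 CPM, and Ccl12 270.4 ± 111 and 89.4 CPM. In the WT day 17 graft with 13 cells in cluster 13, Ccl2 was at 134 CPM and Ccl7 at 193 CPM, below the 856 and 1299 CPM in the 20 cluster 2 cells of the same graft. Cluster 13 held 30.9% of the Ccl2, 35.6% of the Ccl7 and 40.7% of the Ccl12 UMIs of macrophages. Ccr2 had its highest mean in cluster 10 (429 ± 76.8 CPM), led by Retnla, Fcrls and Ear2, then in cluster 5 (318 ± 159 CPM), and was lower in clusters 2 (146 CPM) and 4 (106 CPM). Ligand and receptor thus peaked in different macrophage clusters.

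The clusters that held most macrophages changed with the day. Cluster 4, with Inhba, Slpi and Cxcl9 in the lead, was 51.5 ± 13.8% of macrophages in WT and 67.9 ± 13.8% in Rnls mutant grafts at day 10, and 7.31 ± 6.43% and 4.89 ± 2.60% at day 17. Cluster 13 went from 25.3 ± 8.33% and 17.2 ± 14.3% to 3.57 ± 5.73% and 0.781 ± 0.406%. Cluster 2 was 5.44 ± 3.35% and 1.76 ± 1.47% at day 10 and 28.6 ± 11.2% and 42.2 ± 12.8% at day 17. High Ccl8 was thus carried mainly by cluster 13 at day 10 and by cluster 2 at day 17. These shares depend on the genes in question and were not tested.

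Within the 2 clusters with the most Ccl8 the genotypes overlapped. In cluster 13 at day 10 it was 11966 ± 2406 CPM in WT and 10765 ± 2453 CPM in Rnls mutant grafts. Cluster 2 at day 17 had 11101 ± 2091 CPM in WT and 12121 ± 3293 CPM in Rnls mutant grafts. In cluster 5 at day 17 the values were 622 ± 204 CPM in WT and 1393 ± 159 CPM in Rnls mutant grafts, with ranges apart, beside lymphocyte levels of 101 and 570 CPM. The share of all genes with ranges apart in that cluster is not given here, and the difference was not tested. To set cluster mix apart from level, the CPM of each cluster were averaged per graft, weighted by the graft's own share of cells in each cluster or by the mean shares over all grafts. These means weight clusters by cells and the edgeR sums weight them by UMIs, so the values with the own mix are another quantity than the edgeR values of -0.25 (WT) and 0.57 (Rnls mutant) between days. The log2 difference of Ccl8 between days was 0.06 with the own mix and -0.71 with the mean mix in WT, and 1.08 and -0.70 in Rnls mutant grafts. Between genotypes it was -0.52 and 0.40 at day 10 and 0.50 and 0.41 at day 17. Grafts overlapped in all 4 contrasts under both weightings. The Rnls mutant day 10 values with the mean mix rest on few cells, since cluster 2 had 1 to 7 cells per graft there and 16 in all. Graft 1 of that group had cells in 4 of the 6 clusters only, over which its weights were rescaled, and graft 3 went from 1810 to 12047 CPM, with 1 cell in cluster 2. For Ccl2 in Rnls mutant grafts the ratio of the mean at day 17 to that at day 10 was 0.494 with the own mix, with all grafts apart, and 0.787 with the mean mix, with overlap. For Ccr2 it was 2.44, with all grafts apart, and 1.51, with overlap. The values with the mean mix rest on the same few cluster 2 cells at day 10.

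Ccl2 within cluster 13 did not overlap between the genotypes at day 10. Many genes, clusters and contrasts were looked at, and the share of all genes without overlap in this cluster is not given here. The 4 Rnls mutant grafts averaged 1424 ± 332 CPM (1140.1 to 1892) and the 4 WT grafts 703 ± 178 CPM (515 to 903). The Rnls mutant values came from 31, 113, 12 and 25 cells. In the larger cluster 4 the means were 212 CPM in Rnls mutant and 139 CPM in WT grafts, with overlap. At day 17, cluster 2 had 237 ± 43.5 CPM in Rnls mutant and 480.0 ± 278 CPM in WT grafts, also with overlap. The difference in cluster 13 was not tested, and over all macrophages the Ccl2 values of the genotypes overlapped at day 10.

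**Figure D4:**
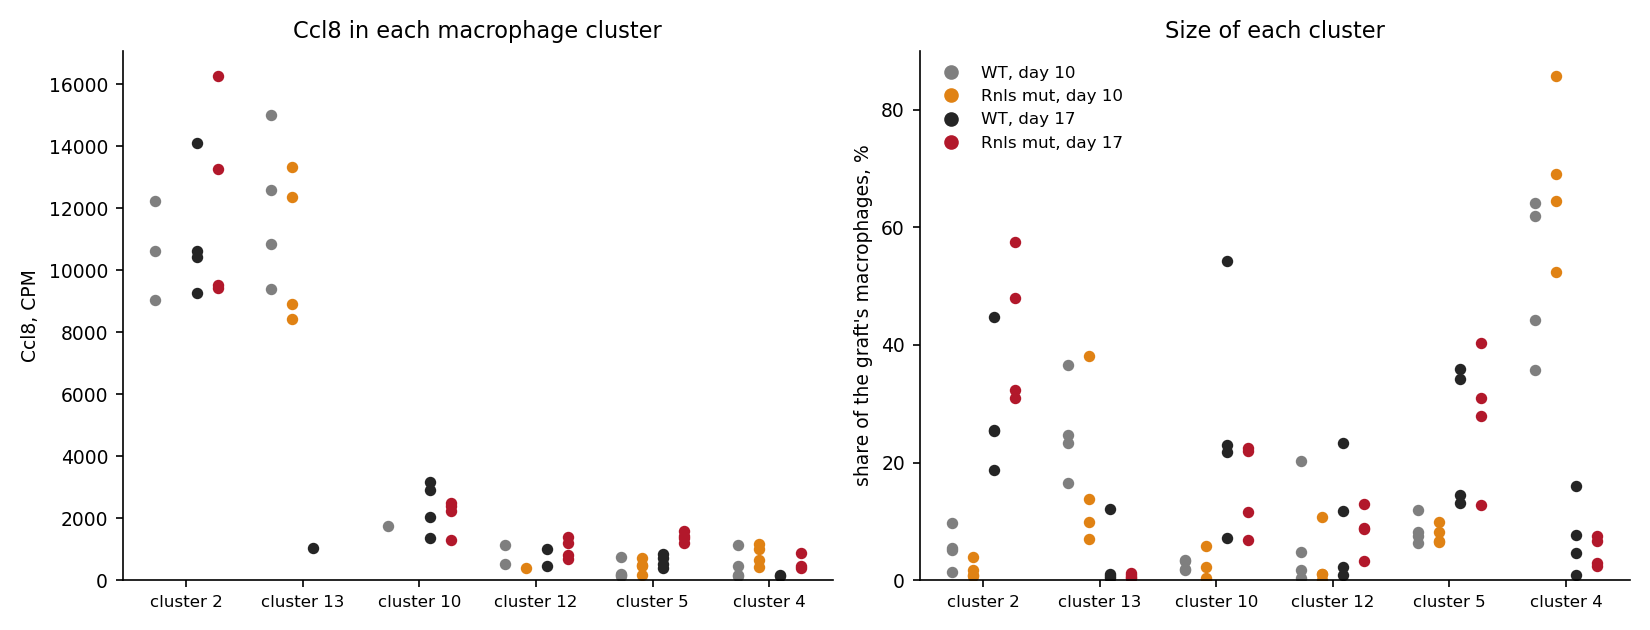
Ccl8 level in each macrophage cluster (CPM per graft with at least 10 cells of the cluster) and the share of macrophages that each cluster makes up (percent per graft), coloured by group. Clusters 2 and 13 average 11344 and 10216 CPM, and cluster 13 is mainly a day 10 and cluster 2 mainly a day 17 cluster.

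Ccl8 was detected in 72.3% of macrophages, Ccr2 in 43.7%, Ccl2 in 36.4%, Ccl7 in 33.0% and Ccl12 in 12.2%, and this detection bounds how the UMIs can be spread. A Ccl8 UMI was also found in 68.6% of CD4 T cells of Rnls mutant day 17. Detection alone therefore does not show that a macrophage makes Ccl8. The 718 cells (10%) with the most UMIs of a gene held 93.7% of Ccl12, 75.8% of Ccl7, 71.2% of Ccl2 and 59.4% of Ccl8 UMIs of the 7179 macrophages, and 50.8% of Ccr2 UMIs. The highest single cell had 983 UMIs of Ccl8, 160 of Ccl2, 122 of Ccl7, 44 of Ccl12 and 20 of Ccr2.

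Macrophages with a UMI of 1 ligand gene more often had another than macrophages without it. With cells thinned to 1000 UMIs, Ccl7 was found in 49.1%, 37.6%, 44.1% and 40.0% of macrophages with a Ccl2 UMI (WT day 10, Rnls mutant day 10, WT day 17, Rnls mutant day 17) and in 10.5%, 7.44%, 14.4% and 13.03% of those without. Ccl12 was found in 13.2%, 16.7%, 5.26% and 4.26% of macrophages with Ccl8 and in 2.02%, 2.41%, 1.79% and 1.03% of those without. Ccr2 showed no such pattern with Ccl2, with 11.3%, 9.29%, 17.6% and 21.6% of Ccl2-positive and 10.1%, 8.41%, 17.3% and 22.7% of Ccl2-negative macrophages. The cells of 1 graft share their library and their mix of clusters, so these shares have no test. After this thinning, 43.0% of CD4 T cells of Rnls mutant day 17 also held a Ccl8 UMI. The split of macrophages by Ccl8 there does not single out those that make it.

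Across the 16 grafts, Ccl2, Ccl7 and Ccl12 levels of macrophages went together, and Ccl8 went with Ccl2 within libraries only. On log2(CPM + 1), Pearson's r was 0.72 for Ccl2 and Ccl7 (Spearman's rho 0.70), 0.69 for Ccl2 and Ccl12 (0.74) and 0.65 for Ccl7 and Ccl12 (0.62). For deviations from the library mean these r were 0.93, 0.74 and 0.64. Ccl2 and Ccl8 had an r of -0.00 over all grafts (rho -0.03) and 0.66 within libraries. Ccl2 and Ccr2 had -0.45 (rho -0.44) and 0.06 within libraries. The points share library, depth and cluster mix, so these values are descriptions.

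By the same measure over the 16 grafts, genes near to Ccl2 were Ier5 (r 0.87), Gm26887 (0.85), Arl6ip1 (0.84) and Slfn4 (0.83). Ccl7 was nearest to Snx16 (0.82), Mndal (0.80), Mrnip, Rbbp4 and Sdhaf3. Ccl8 was nearest to 1110046J04Rik (0.84), Fgd2 (0.83), the complement gene C1qc (0.83), Ube2q1 and Ptpn18. Ccl12 was nearest to Rraga (0.88), Ston2 (0.87), the urokinase gene Plau (0.87), the macrophage receptor gene Siglec1 (0.86) and Gabpb1. Ccr2 had the closest neighbours of the 5, Adcy7 (0.96), Arhgap9 (0.94), Arhgef6 (0.93), Oxct1 (0.93) and Pip4k2a (0.93). Within libraries the r of Adcy7 with Ccr2 was 0.87 and that of Ier5 with Ccl2 was 0.80.

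The other chemokine genes were tested in the same macrophages, and none of the 6 lists had a gene called between genotypes at either day. The day contrasts of WT and Rnls mutant share no sample. Of all genes tested, 24.6% were called between days in WT and 41.4% in Rnls mutant grafts, and the counts below are to be read against these shares. Of 9 other CC ligands tested, 3 were called in WT, 1 that rose and 2 that fell (list median -0.56 against 0.03 for all genes, log2), and 6 in Rnls mutant grafts, 2 that rose and 4 that fell (median -0.56 against 0.02). Ccl4, a chemokine of activated leukocytes, fell by 1.56 ± 0.33 on the log2 scale in WT (adjusted p = 0.00405 in edgeR) and Ccl17, a CCR4 ligand, by 5.40 ± 1.10 (adjusted p = 0.00315 in edgeR). Both were also among those that fell in Rnls mutant grafts. Ccl9 rose in both genotypes but lost its call in 7 of 21 alternatives in each, where its adjusted p in edgeR reached 0.094. These were the fit with no filter, the fits without WT day 10 graft 1, 2 or 3 or WT day 17 graft 2, 3 or 4, and for the Rnls mutant those without day 10 graft 1, 2 or 4 or day 17 graft 1, 2 or 4. Of 9 CXC, CX3C and XC ligands, 0 rose and 3 fell in WT (median 0.36), and 0 rose and 5 fell in Rnls mutant grafts (median -0.89). Cxcl10, an interferon-induced CXCR3 ligand, fell by 2.37 ± 0.33 in WT (adjusted p = 0.000214 in edgeR) and by 2.66 ± 0.33 in Rnls mutant grafts (adjusted p = 3.24e-05 in edgeR). Cxcl16, the CXCR6 ligand, fell by 1.26 ± 0.17 in Rnls mutant grafts (adjusted p = 2.02e-05 in edgeR).

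Of the other CC and atypical receptor genes, 1 of 4 fell in WT and 3 of 4 fell in Rnls mutant grafts, in both cases with 0 that rose (medians -0.57 and -1.30). Ccr7, the receptor that guides dendritic cells to lymph nodes, fell by 4.26 ± 0.53 in WT (adjusted p = 5.78e-05 in edgeR). Ccr1 fell by 1.31 ± 0.18 in Rnls mutant grafts (adjusted p = 2.54e-05 in edgeR). Dendritic cell marker genes, Ccr7 among them, summed to 26.2 to 82.6 CPM in the macrophages of day 10 grafts and to 6.26 to 82.0 CPM at day 17, and their part in this result was not tested. Of 2 CXC and CX3C receptors tested, Cxcr4 rose by 1.09 ± 0.22 in WT (adjusted p = 0.00144 in edgeR), and 0 were called in Rnls mutant grafts.

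Of 21 genes of chemokine receptor signaling tested, 5 rose and 0 fell in WT (median 0.10, against 24.6% of all genes called), and 6 rose and 2 fell in Rnls mutant grafts (median 0.14, against 41.4%), so the share called was near that of all genes. Arrb1, which encodes a beta-arrestin, rose by 0.83 ± 0.14 in WT (adjusted p = 0.000466 in edgeR) and by 1.01 ± 0.14 in Rnls mutant grafts (adjusted p = 3.26e-05 in edgeR). Pik3r5, a subunit of the PI3-kinase that G proteins activate, rose by 0.96 ± 0.17 in WT (adjusted p = 0.000555 in edgeR). Dock2, a Rac activator of migrating leukocytes, rose by 1.11 ± 0.15 in Rnls mutant grafts (adjusted p = 1.88e-05 in edgeR). Of 24 inducers and regulators of Ccl2 family transcription, 1 rose and 3 fell in WT (median -0.08), and 4 rose and 8 fell in Rnls mutant grafts (median -0.28 against 0.02 for all genes), where 24.6% and 41.4% of all genes were called. Irf8, an interferon-regulated transcription factor, fell by 1.03 ± 0.14 in WT (adjusted p = 9.15e-05 in edgeR), and Ifngr1, a chain of the interferon-gamma receptor, rose by 0.84 ± 0.14 in Rnls mutant grafts (adjusted p = 0.000107 in edgeR). The cluster shift described above moved with the day in both genotypes, and its part in these changes was not tested.

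In monocytes the same lists gave few calls. Grk6, a kinase of activated G protein-coupled receptors, rose by 1.55 ± 0.38 from day 10 to day 17 in WT (adjusted p = 0.0217 in edgeR) and Ifngr1 by 0.99 ± 0.21 (adjusted p = 0.0131 in edgeR). Both calls were lost without WT day 17 graft 1, with values of 0.17 for Grk6 and 0.59 for Ifngr1. In Rnls mutant grafts Ifngr1 rose by 1.28 ± 0.21 (adjusted p = 0.00143 in edgeR). The other 4 lists had 0 genes called in either direction between days.

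**Figure D5:**
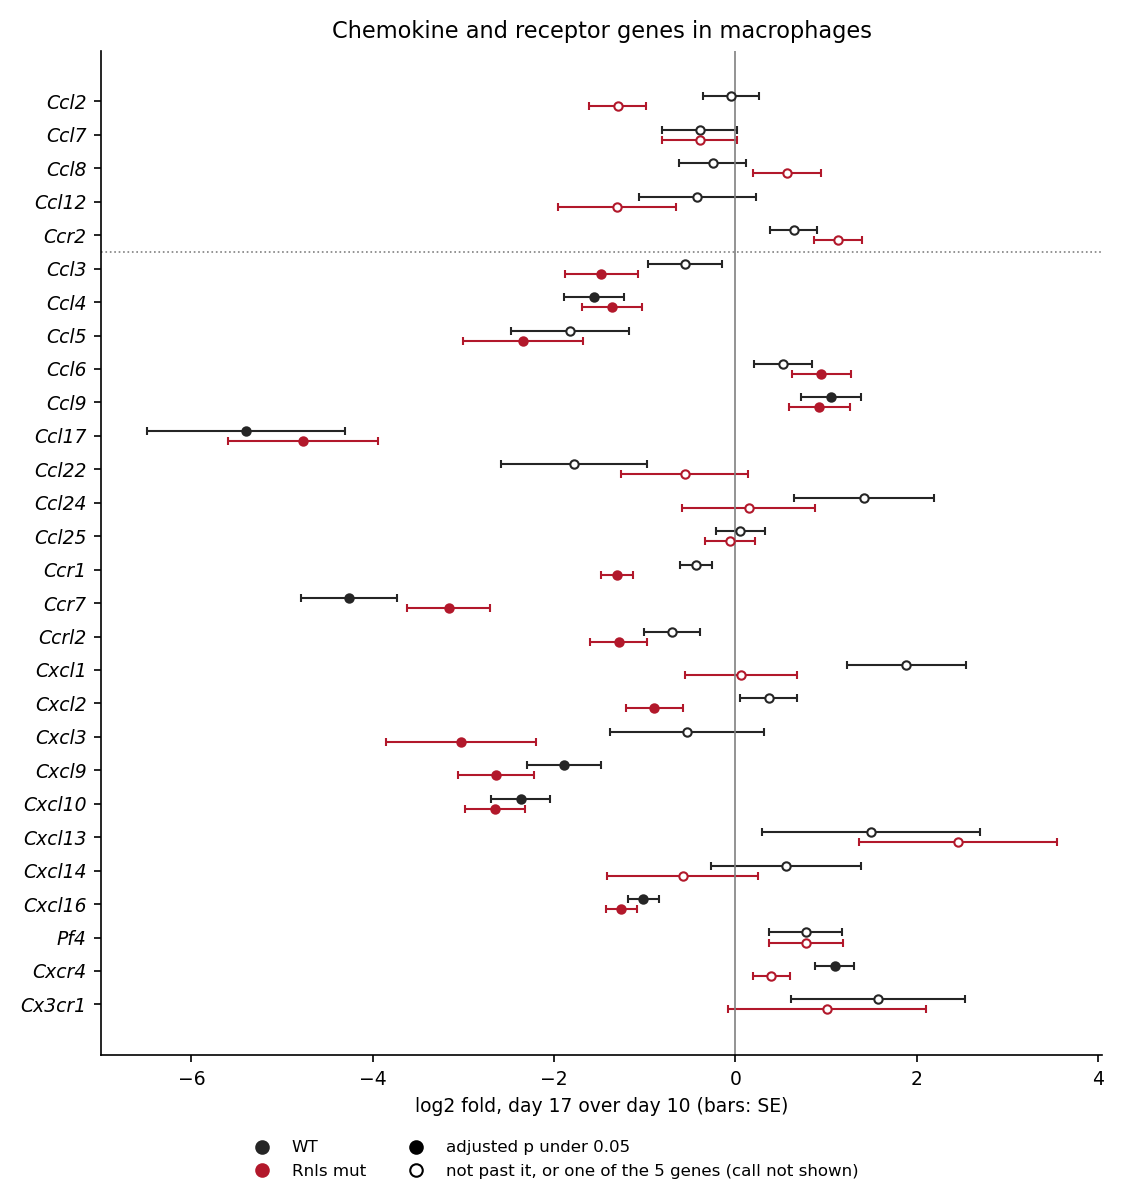
Log2 fold change of the chemokine and chemokine receptor genes shown, in macrophages, day 17 over day 10, for WT and Rnls mutant grafts. Bars are standard errors, filled points passed an adjusted p of 0.05 in edgeR, and the 5 genes described here, above the dotted line, are drawn open whether called or not because they were chosen with results known. Ccl2 lies at -0.05 in WT and -1.30 in Rnls mutant grafts, and Cxcl10 lies at -2.37 and -2.66.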

How the data were processed

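Immune cells of 16 NIT-1 grafts were sequenced with the 10x Genomics 3' v3.1 protocol in 4 gene expression libraries, 1 per genotype and day, and cell hashing told the 4 grafts of a library apart. The authors deposited UMI counts, whole numbers per gene and cell, with a table of graft, library, cluster and cell type of each cell. The submitters' processing notes name Cell Ranger and mm10, and their filters on cells, the handling of doublets and the method of annotation are not given in the sources used here. Every cell had at least 1001 UMIs. The separate hashtag libraries were not used here.

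UMIs were summed per graft and cell type (at least 10 cells) and divided by the sum to give CPM, counts per 1000000 UMIs. No doublet caller was run, and 403 of 7179 macrophages (5.61%) and 121 of 2345 monocytes (5.16%) held a UMI of a lymphocyte gene (Cd3d, Cd3e, Cd3g, Cd79a, Cd79b or Ncr1), which 1 alternative left out. Sums were fitted with edgeR 4.0.16 (robust quasi-likelihood test, TMM, filterByExpr, 1 coefficient per group, R 4.3.3), two-sided, with Benjamini-Hochberg adjustment over all genes tested and a threshold of 0.05. The standard error of a log2 fold change was taken from its F statistic, and 95% intervals use the normal quantile. That quantile is smaller than the one of a t distribution for so few grafts, so the intervals are somewhat too narrow. Shares of cells have exact binomial intervals, which cover counting error only. The script was tested on simulated counts. Grafts of 1 group are separate hashtagged samples of 1 library, so the spread between them holds no variation between libraries. Alternatives were DESeq2 1.42.0, no filter on low counts, at least 20 cells per graft, a block by hashtag number, and leaving out each graft in turn. The subtraction of the lymphocyte level and the same cluster mix for the genes other than Ccl8 were added after the data were seen.

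The 5 genes, the pathway lists (16, 14, 15, 8, 21 and 24 genes), the marker lists and the tests were chosen with earlier results of these data known. Beside the 5 genes, those named are at most 3 per direction of the pathway lists with the smallest adjusted p in each cell type and contrast, and the 5 genes with the highest r to each of the 5. A gene that met this rule and a gene of the lists are not reported here by name. Ccl4, Ccl9, Ccl17, the 3 genes called at day 10 and the leading genes of clusters were named after their values were seen. Positions are from GENCODE vM21 and promoters from RefSeq. Python 3.11.15 (numpy 2.4.6, pandas 2.3.3, scipy 1.17.1, matplotlib 3.10.9) was used for sums and figures.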

Additional observations from a re-analysis of the deposited data

Results flagged for a closer look

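Of 55 groups of 4 grafts in which the 5 genes were measured, 2 had a graft whose gap to the nearest of the others exceeded, as a share of the range of the group, the 95% limit of Dixon's test. Chance passes this limit in about 1 of 20 groups. Ccl7 in macrophages of Rnls mutant day 17 graft 4 was 485.1 CPM, with a gap of 0.858 of the range above the other 3 grafts (225 to 262 CPM). Ccl7 over all cells of Rnls mutant day 10 graft 2 was 195.4 CPM, with a gap of 0.896 of the range. Both were the highest graft of their group.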

How the results depend on the processing

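From day 10 to day 17 of Rnls mutant grafts, the log2 values of Ccl2 and Ccr2 in macrophages were -1.55 to -1.01 and 0.96 to 1.31 over 21 alternatives to the edgeR fit. The grafts of these days lay apart for both genes, so leaving out 1 graft could hardly turn the sign. Some of these alternatives left out WT grafts, which are not part of this contrast. With the same cluster mix, an alternative chosen after the data were seen, the ratios of Ccl2 and Ccr2 went from 0.494 and 2.44 to 0.787 and 1.51, and the grafts overlapped. Of 820 values of the 5 genes under alternatives, 809 moved by less than the spread between replicates, and 8 of the other 11 came from leaving out WT day 17 graft 3, 1 of 3 monocyte sums of its group. Of 1130 values of called pathway genes, 70 lost the call and none turned. Of 164 counts per list, 17 moved by over 1.5 times. Most fits behind these counts left out 1 graft, often of a group outside the contrast, so that small moves were likely beforehand. The counts are therefore no measure of how firm the results are. The count of genes called between genotypes in macrophages at day 10 was 3, with 16 in DESeq2, 5 without the filter and 1 to 4 without 1 graft. At day 17 it was 0, with 13 in DESeq2 and 0 without any 1 graft. Between days it was 1711 to 2334 (WT) and 3166 to 4070 (Rnls mutant) without 1 graft. In monocytes at day 10 the count of 0 became 2 in DESeq2, 3 without the filter and 0 to 1 without 1 graft, and at day 17 it became 8 without the filter and 0 to 4 without 1 graft. In WT monocytes between days the count of 266 became 413 in DESeq2, 563 without the filter and 37 to 1277 without 1 graft. In Rnls mutant monocytes the count of 246 became 437 in DESeq2, 618 without the filter, 124 with at least 20 cells per graft and 78 to 583 without 1 graft. The cause of these moves was not tested. The log2 difference of Ccl8 with the same cluster mix was 0.40 between genotypes at day 10, -0.71 between days in WT and -0.70 between days in Rnls mutant grafts, with 16 cells of cluster 2 in Rnls mutant day 10 grafts. Graft 1 of that group had cells in 4 of the 6 clusters only, so its mix was not quite the same. Thinned shares of lymphocytes with Ccl8 were 10.54%, 4.764%, 11.01% and 43.95%. Subtracting the lymphocyte level moved 3 of 32 group means, all of Ccl8 in monocytes. WT day 17 grafts 2 and 4 held 7 and 10 monocytes, which limits what can be seen there.

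Grafts with the same hashtag number did not steadily deviate together (r between -0.24 and 0.34 over genes). In macrophages of day 10 the r of number 1 was 0.28, above the highest r with another number (-0.02). That of number 2 was -0.19, below it (0.13). This check cannot exclude that equal numbers mark 1 host. The labels do not give the mouse, so the numbers were not taken as pairs. With the number as a replicate block the monocyte count between genotypes at day 17 was 1 in place of 0, and no other count moved by over 1.5 times.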

Other observations

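Mast cells were too few for the comparisons by graft, with 13 cells in 9 grafts and 38949 UMIs in all. Ccl2 was found in 13 of the 13 mast cells, with 227 UMIs (5828 CPM pooled), and Ccl7 in 11 of 13, with 450 UMIs (11554 CPM). The highest mast cell had 95 UMIs of Ccl7. Ccl8 had 10 UMIs in 8 of these cells, and Ccl12 and Ccr2 had 0, which allows up to 77.0 CPM. These cells are not replicates and no test was made.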
